A study of Mus musculus with 21 samples.

Results

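IL-6 family cytokines and the genes through which they signal were described in stromal cells of the mouse colon. The 10 genes were taken by symbol from the 31053 genes of the single-cell count matrix: the cytokines Il6, Il11 and Lif, the receptor subunits Il6ra, Osmr and Il6st, the kinases Jak1 and Jak2, the transcription factor Stat3 and the inhibitor Socs3. All 10 were found, each with UMIs in the library. Cytokines of this family bind a receptor of their own, join the shared subunit gp130 (encoded by Il6st) and activate JAK kinases, which phosphorylate STAT3. STAT3 then switches on genes that include Socs3, whose product inhibits the receptor complex. In the gut the family is known for its part in inflammation and in the regrowth of the epithelium after injury, and fibroblasts are among its known sources.

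RNA came from 1 single-cell library of wild type C57BL/6 mice (female, 12 weeks old) given 2% DSS, with D3 in the title. DSS, dextran sulfate sodium, injures the colon epithelium. The cells are described as the whole gp38+CD90+ mesenchymal fraction of the colon lamina propria. Accessible chromatin came from ATAC-seq peak lists of 4 sorted colon populations of C57BL/6 mice (male, 12 weeks), named MRISC, CD34 SP, CD138 and Myofibroblast, with 2 libraries each and no treatment in the labels. No library of Map3k2-/- mice and no single-cell library of untreated mice was used, so no genotype or treatment was compared. The number of mice behind a library is not given in the sources used here. With 1 single-cell library and 1 pooled list per population nothing could be tested, and the intervals below cover counting error only.

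Barcodes with 500 or more detected genes and no more than 10% mitochondrial UMIs were kept, 11376 of 11484, with 72920197 UMIs in all and a median of 6052 UMIs per cell. The cells formed 11 clusters, 9 of them with 50 or more cells, when clustered without the 10 genes and without a wider pathway list. A cluster is called by its leading pair of genes. The Myh11 Actg2 cluster (1114 cells) is smooth-muscle-like, the Slpi Msln cluster (89 cells) mesothelium-like, the Wif1 Sox6 cluster (76 cells) crypt-top-fibroblast-like and the Kcnk2 Tnc cluster (1851 cells) lamina-propria-fibroblast-like. The Mmp10 Cemip cluster (1807 cells) is inflammation-associated-fibroblast-like. The Ptx3 Ebf1 cluster (1374 cells) held markers of more than 1 fibroblast type. These were Cd81, Ackr4, Grem1 and C3 of 6 CD34+CD81+ genes and Pi16, Has1, Ebf1 and Npy1r of 6 adventitial genes. Of 7 inflammation-associated genes they were Mmp3, Il33 and Tnfrsf11b. The rest of these lists, Cd34, Sfrp1, Dpp4, Ly6c1, Mmp10, Mmp13, Cxcl5 and Ptgs2, did not pass as markers there, and Mmp13 had no UMI. The Hapln1 Spock3 (2483 cells) and Cxcl13 Mgp (2273 cells) clusters held no full marker set. The Jchain Igkc cluster (248 cells) mixed plasma cell and macrophage markers with fibroblast genes and was not counted among the stromal clusters. Transcripts of the sort antigens gp38 (Pdpn) and CD90 (Thy1) were present in all 9 clusters, together at 208 to 550 CPM (UMIs of a gene per 1000000 UMIs pooled over the cells of a cluster). In Jchain Igkc the lamina propria fibroblast genes summed to 3798 CPM, against 3019 CPM in Hapln1 Spock3, and the leukocyte gene Ptprc had 15 UMIs. Whether its cells were doublets was not tested.

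Il6 RNA lay mostly in the Ptx3 Ebf1 cluster. Il6 encodes interleukin-6, the name-giving cytokine of the family. The cluster held 12.1% of the cells and 68.5% of the 2772 Il6 UMIs, and pooled Il6 was 228 CPM there (exact 95% Poisson interval 218 to 238), against 13.5 CPM in all other kept cells, 16.9-fold higher. Of the 6156 genes tested, 4.48% were 2-fold higher in this cluster at 20 CPM or more. The mesothelium-like cluster came next with 61.9 CPM (45.9 to 81.6) and after it the Mmp10 Cemip cluster with 27.9 CPM (25.1 to 30.9), and these 3 intervals do not touch. Il6 was 12.2 CPM in the Kcnk2 Tnc cluster, 8.67 CPM in Cxcl13 Mgp, 8.63 CPM in Hapln1 Spock3, 7.61 CPM in Jchain Igkc, 7.02 CPM in Myh11 Actg2 and 1.98 CPM (1 UMI) in Wif1 Sox6. Neighbours in that lower order overlap in their intervals. Droplets with 1 to 100 UMIs, taken as empty, held Il6 at 48.8 CPM. Free RNA was put at 22.0% of stromal UMIs at most, and after that share was taken off, Il6 was 278 CPM in the Ptx3 Ebf1 cluster and 0 in the 5 lowest clusters. The Kcnk2 Tnc cluster kept 1.90 CPM. Single cells of the low clusters still held up to 24 Il6 UMIs in Kcnk2 Tnc and 19 in Hapln1 Spock3, so free RNA and Il6 of a few cells cannot be told apart in their pooled levels.

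**Figure D1:**
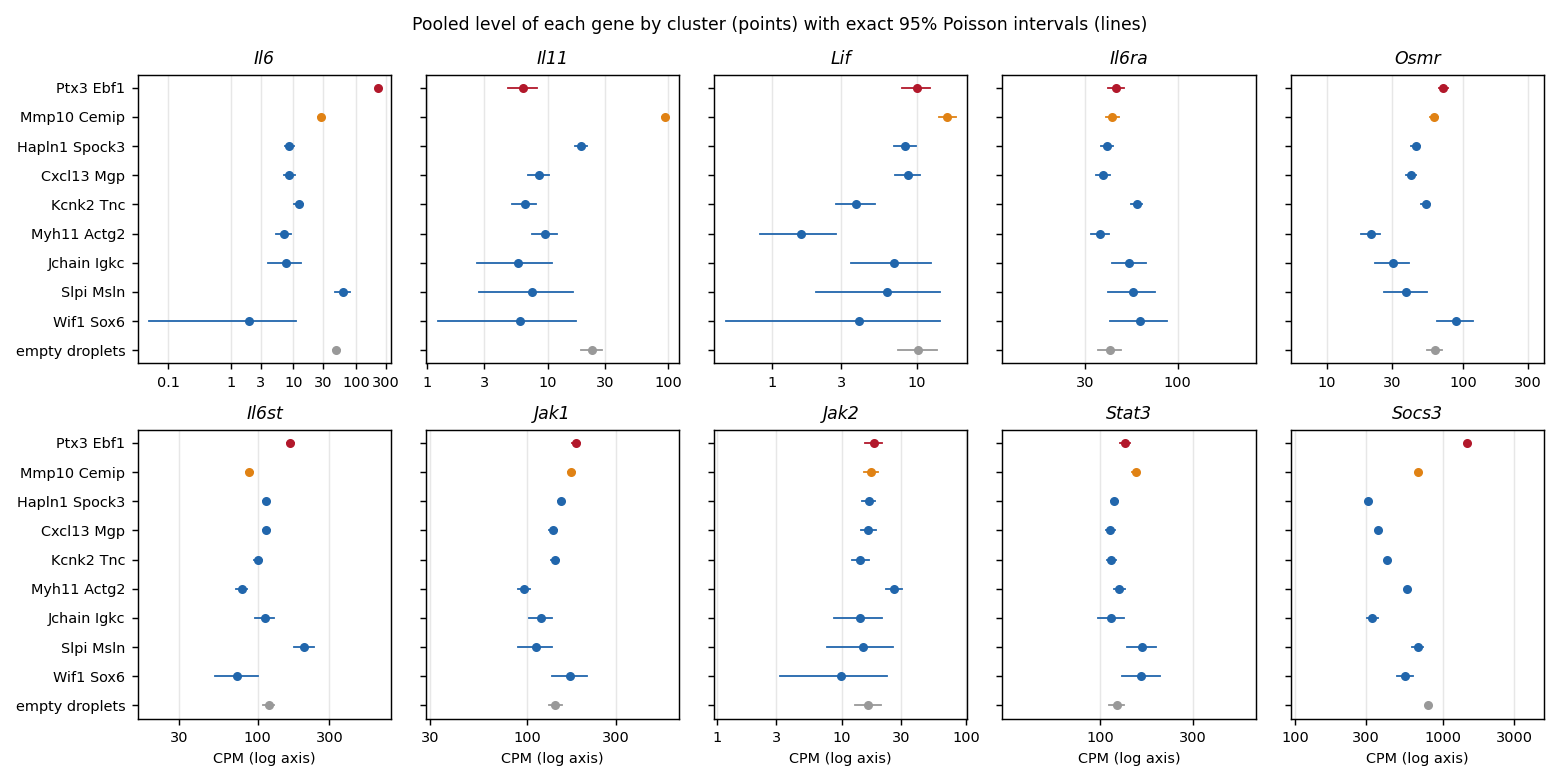
Pooled level of each gene (x axis, CPM, log scale, a scale per panel) in each cluster of 50 or more cells and in empty droplets (y axis); lines are exact 95% Poisson intervals. Il6 stands out at 228 CPM in the Ptx3 Ebf1 cluster and Il11 at 93.7 CPM in the Mmp10 Cemip cluster, while Stat3 lies between 112 and 163 CPM in all 9 clusters.

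Il6 was detected in a minority of the Ptx3 Ebf1 cells. With every cell thinned to 3000 UMIs (10640 cells, 736 shallower cells left out, 243 of them from this cluster), 239 of 1131 Ptx3 Ebf1 cells had an Il6 UMI, 21.1% (exact binomial 95% interval 18.8 to 23.6). Among the Jchain Igkc cells 7 of 237 had a UMI, 2.95% (1.2 to 5.99), at a median depth of 5884 UMIs before thinning, against 5645 in the Ptx3 Ebf1 cluster. Ptx3 Ebf1 cells with Il6 held 2.98 thinned Il6 UMIs on average, and 128 of them had at least 2. Without thinning the highest cell held 50 Il6 UMIs. The share follows depth: it was 25.5% without thinning and 16.7% at 2000 UMIs.

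Leukocytes are a known source of Il6. Ptprc, which encodes CD45, had 0 UMIs in the Ptx3 Ebf1 cluster, where 3 UMIs would be 0.36 CPM. The 6 macrophage and dendritic genes summed to 43.1 CPM in that cluster, against 31.5 to 75.7 CPM in the other 5 stromal clusters over 1000 cells and 1596 CPM in Jchain Igkc. The 7 mesothelium genes summed to 91.2 CPM in the Ptx3 Ebf1 cluster, with Muc16 and Bnc1 at 0, against 4701 CPM in the mesothelium-like cluster.

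Immediate-early and heat-shock genes, which also respond to tissue dissociation, were measured beside Il6 and Socs3. Of 6 such genes the 4 immediate-early ones were higher in the Ptx3 Ebf1 cluster than in all other kept cells, from Jun at 3358 CPM against 2124 CPM to Atf3 at 1648 CPM against 228 CPM. The heat-shock genes did not run together: Hspa1a was 742 CPM against 1022 CPM and Hspa1b 169 CPM against 118 CPM. The summed level of all 6 (Fos, Jun, Egr1, Atf3, Hspa1a and Hspa1b) was 13836 CPM in the Ptx3 Ebf1 cluster, and 5009 to 10968 CPM in the other 8 clusters. Among thinned cells at or below the library median of that sum (17 UMIs per 3000), Il6 was 42.5 CPM in 188 Ptx3 Ebf1 cells (27.3 to 63.3), against 10.5 CPM in 5332 other cells, 4.05-fold. Above the median it was 243 CPM in 943 Ptx3 Ebf1 cells (226 to 262), against 14.2 CPM in 4177 other cells, 17.1-fold. Il6 was thus higher in the Ptx3 Ebf1 cluster on both sides of the median, by a smaller fold among cells with few stress UMIs. The part of dissociation in the Il6 level was not tested. Most cells of this cluster fell above the median, so the lower group is small.

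**Figure D2:**
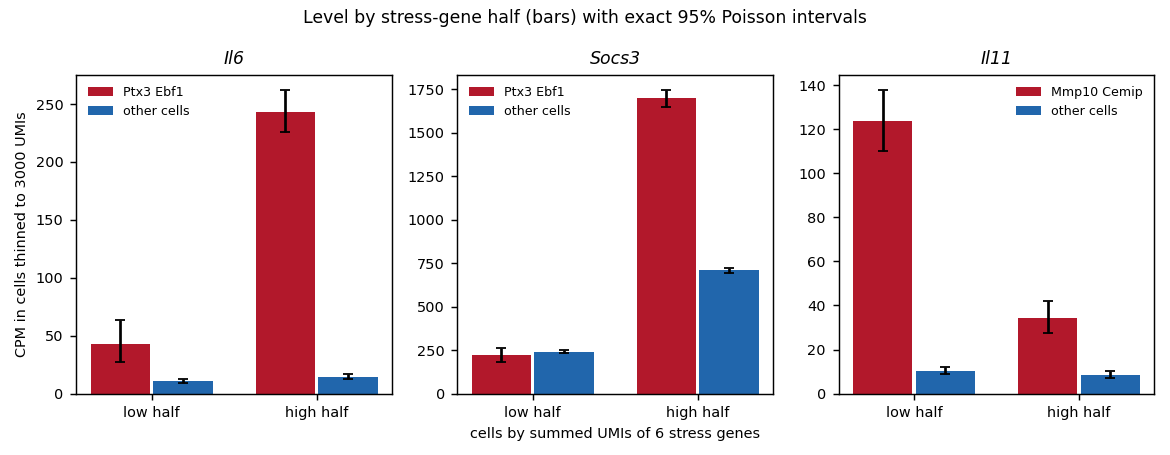
Il6, Socs3 and Il11 (y axis, CPM in cells thinned to 3000 UMIs) in their highest cluster (left bar) and in all other cells (right bar), for cells at or below and above the median of summed stress UMIs (x axis); error bars are exact 95% Poisson intervals. Socs3 was 220 CPM in Ptx3 Ebf1 cells against 242 CPM in other cells below the median, and Il11 was 124 CPM in Mmp10 Cemip cells there.

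Il11 RNA lay in another cluster. Il11 encodes interleukin-11, a family member that signals through its own receptor and gp130 and is known from fibroblasts of injured tissue. The Mmp10 Cemip cluster held 15.9% of the cells and 65.7% of the 1853 Il11 UMIs. Its level there was 93.7 CPM (88.5 to 99.2), against 10.6 CPM in all other kept cells, 8.85-fold higher. Of the 6179 genes tested, 2.72% were 2-fold higher in this cluster. The Hapln1 Spock3 cluster followed with 18.96 CPM (16.9 to 21.2), and the other 7 clusters lay between 5.71 and 9.54 CPM with overlapping intervals. Il11 in the Ptx3 Ebf1 cluster was 6.24 CPM, so the cluster highest in Il6 was among the lowest in Il11. After thinning, 190 of 1752 Mmp10 Cemip cells had an Il11 UMI, 10.8% (9.43 to 12.4), against 21 of 1131 Ptx3 Ebf1 cells, 1.86%, and 5 of 237 Jchain Igkc cells, 2.11%. Unlike Il6, Il11 was 124 CPM in Mmp10 Cemip cells at or below the stress median (110 to 138, 847 cells) and 34.2 CPM in those above it (27.7 to 42.0, 905 cells). At the coarser Leiden resolution of 0.3 the Mmp10 Cemip cells were split. The cluster highest in Il11 then had 3538 cells, 841 of them from the 1807 Mmp10 Cemip cells, and an Il11 fold of 2.83, while 966 others fell in a cluster with Il11 at 28.4 CPM (26.0 to 30.9).

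Lif encodes leukaemia inhibitory factor, a cytokine that signals through the Lif receptor and gp130. It was scarce, with 611 UMIs in the library. Its highest level was 16.2 CPM in the Mmp10 Cemip cluster (14.0 to 18.5), against 6.69 CPM in all other kept cells, 2.42-fold higher but under the 20 CPM used for calls. Ptx3 Ebf1 had 9.96 CPM, Cxcl13 Mgp 8.67 CPM and Hapln1 Spock3 8.27 CPM, with overlapping intervals. The smooth-muscle-like cluster was lowest with 1.59 CPM (0.821 to 2.78).

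The receptor subunits were spread over all clusters. Il6ra, the alpha receptor that binds IL-6, ranged from 36.6 CPM in the smooth-muscle-like cluster to 61.4 CPM (41.7 to 87.2) in the Wif1 Sox6 cluster. Its best supported difference among large clusters was 58.6 CPM in Kcnk2 Tnc (54.3 to 63.1), against 40.7 CPM in all other kept cells. The 24 cells of an epithelium-like cluster led by Reg3g and Reg3b had 0 Il6ra UMIs among 595032, which allows a level of up to 5.04 CPM at 3 UMIs. Osmr, the oncostatin M receptor subunit, ranged from 20.9 CPM (17.8 to 24.5) in smooth-muscle-like cells to 89.1 CPM (65.0 to 119) in Wif1 Sox6 cells, with 72.0 CPM in Ptx3 Ebf1 and 61.3 CPM in Mmp10 Cemip. Il6st, encoding gp130, was highest in the mesothelium-like cluster at 204 CPM (174 to 238), followed by Ptx3 Ebf1 at 164 CPM (155 to 173), and lay between 73.3 and 114 CPM in the other 7. The cluster with the highest Il6 level thus had the second highest Il6st level, and its Il6ra level of 44.8 CPM lay in the middle of the range.

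The partner receptors that are not among the 10 genes differed between clusters too. Lifr, which pairs with gp130 for Lif, was highest in the Mmp10 Cemip cluster at 54.5 CPM (50.5 to 58.7), against 28.8 CPM in all other kept cells. Il11ra1, the interleukin-11 receptor subunit, was 176 CPM in Mmp10 Cemip, second lowest of the 9 clusters, against 260 CPM in all other kept cells. The cluster with most Il11 was thus low in Il11ra1 and high in Lifr.

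Stat3 varied little between clusters and the kinases more. The highest cluster was 1.45 times the lowest for Stat3, 1.91 times for Jak1 and 2.66 times for Jak2, whose lowest cluster had 5 UMIs. Jak1 ranged from 96.7 CPM (89.8 to 104) in the smooth-muscle-like cluster to 184 CPM (175 to 194) in Ptx3 Ebf1 and 173 CPM in Mmp10 Cemip. Jak2 was highest in the smooth-muscle-like cluster, at 26.4 CPM (22.8 to 30.3), against 16.2 CPM in all other kept cells. Stat3 lay between 112 CPM in Cxcl13 Mgp and 163 CPM in the mesothelium-like cluster, with 152 CPM in Mmp10 Cemip (145 to 158) and 134 CPM in Ptx3 Ebf1 (126 to 142). None of Il6ra, Osmr, Il6st, Jak1, Jak2 and Stat3 reached 2-fold between its highest cluster and the other cells, though Osmr (2.16) and Il6st (2.19) did once free RNA was taken off.

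Socs3 was highest in the cluster with most Il6, but did not follow Il6 in proportion or over all clusters. It was 1437 CPM in the Ptx3 Ebf1 cluster (1412 to 1463), against 449 CPM in all other kept cells, 3.20-fold higher. The Mmp10 Cemip cluster had 678 CPM and the mesothelium-like cluster 672 CPM. Next came Myh11 Actg2 with 572 CPM and Wif1 Sox6 with 551 CPM, though Il6 was 7.02 and 1.98 CPM there. Hapln1 Spock3 was lowest in Socs3 with 311 CPM. The same split by stress UMIs was made for Socs3. Among thinned cells at or below the stress median it was 220 CPM in Ptx3 Ebf1 cells (183 to 262), against 242 CPM in other cells (234 to 249), a ratio of 0.91. Above the median it was 1699 CPM in Ptx3 Ebf1 cells, against 710 CPM in other cells, 2.39-fold. Empty droplets had 790 CPM. The higher Socs3 level of the cluster was thus seen above the stress median and not below it, and the part of dissociation was not tested.

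Of the 9 genes that reached 20 CPM in a cluster, 3 were 2-fold higher in their highest cluster than in all other kept cells: Il6, Il11 and Socs3. Of all 7765 genes tested this way, 23.9% were. A wider list of 43 further genes of the family, its receptors, STAT factors, inhibitors and STAT3 target genes gave 15 of 29 at 20 CPM, 11 of them target genes. In the Ptx3 Ebf1 cluster Myc, a growth-promoting transcription factor, was 103 CPM, against 5.70 CPM in other cells (18.0-fold), and Pim1, a kinase, 532 CPM, against 165 CPM (3.22-fold). In the Mmp10 Cemip cluster the acute-phase genes Saa3, at 1428 CPM against 136 CPM (10.5-fold), and Hp, at 178 CPM against 30.5 CPM (5.83-fold), were highest, and Hp was nearly as high in Ptx3 Ebf1 at 165 CPM (156 to 174). The mesothelium-like cluster was highest in Ctf1, which encodes the family cytokine cardiotrophin-1, at 42.1 CPM against 4.29 CPM (9.82-fold). It was also highest in Lcn2, at 120 CPM against 21.8 CPM (5.51-fold), with an interval (97.4 to 146) that overlaps that of Mmp10 Cemip at 94.6 CPM (89.4 to 100), where 1229 of the 1668 Lcn2 UMIs lay. Timp1, a protease inhibitor, was also highest in the mesothelium-like cluster, at 348 CPM against 102 CPM (3.4-fold). Fgl2 was 273 CPM in the Wif1 Sox6 cluster, against 69.5 CPM in other cells (3.93-fold). Oncostatin M, the ligand of Osmr, was close to undetected with 9 Osm UMIs in the library.

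Across the 9 clusters the gene whose level ran most like Il6 was Cxcl1, a neutrophil-attracting chemokine, with a Pearson r of 0.984 on log2(CPM + 1) among 7765 genes, followed by Sult5a1 (0.960), Has1 (0.95), Myc (0.933) and Hoxb2 (0.927). For Il11 the closest were Cebpb (0.903), Lmo4 (0.895), Tcirg1 (0.879), Etf1 (0.868) and Tank (0.853). For Socs3 they were the immediate-early genes Egr1 (0.968) and Ier5 (0.965), then Ccnl1 (0.944), Kdm6b (0.936) and Thbs1 (0.931). Il6 with Socs3 gave 0.767, and Il6 with Il11 0.081. The 9 points come from 1 library and share its free RNA, so these values are descriptions.

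Cytokine transcripts also fell together in single cells. In the thinned cells 35 had both Il6 and Il11 UMIs, against 17.6 expected from the separate shares, 1.99 times as many (exact 95% Poisson interval 1.39 to 2.77). Il6 and Lif were found together in 27 cells, against 10.2 expected (2.64 times, 1.74 to 3.84), and Il11 and Lif in 23 cells, against 9.13 expected (2.52 times, 1.60 to 3.78). Il6 and Socs3 were found together in 376 cells, against 248.8 expected (1.51 times, 1.36 to 1.67). Lif and Jak2 gave 1.56 times, with an interval (0.94 to 2.44) that holds 1. When the expectation was summed within clusters, the ratios were 2.18, 2.20, 1.94, 1.24 and 1.62. Socs3 was found in 5781 of the 10640 cells, which caps the ratio of its pair. Odds ratios pooled over clusters (Mantel-Haenszel) were 2.58, 2.63, 2.20, 2.70 and 1.70 in the same order. By observed over expected in all thinned cells, the median of the 45 pairs was 1.06. The pairs among receptors, kinases and Stat3 lay between 0.913 (Jak1 and Jak2) and 1.09 (Jak2 and Stat3).

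**Figure D3:**
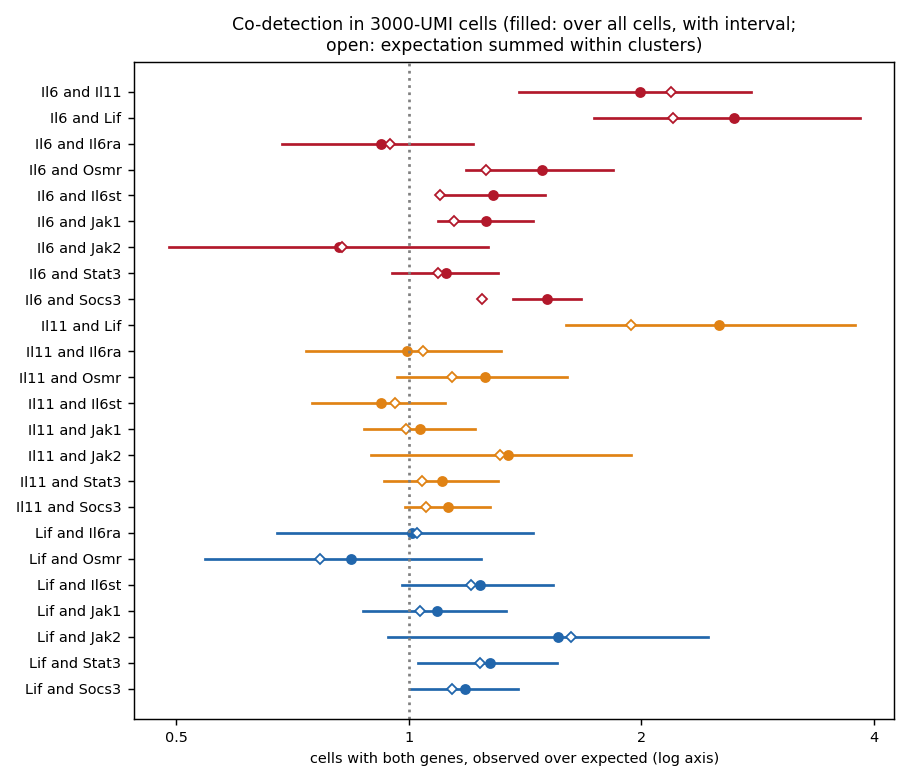
Cells with UMIs of both genes, observed over expected (x axis, log scale), for the 24 pairs that include Il6, Il11 or Lif (y axis), in 10640 cells thinned to 3000 UMIs; lines are exact 95% Poisson intervals and open symbols use expectations within clusters. The 3 cytokine pairs lie near 2 or above on both counts, and the pairs of a cytokine with Il6ra lie between 0.921 and 1.01.

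Within the Mmp10 Cemip cluster, cells with Il11 also held more of the other cytokines. Il6 was 82.5 CPM in the 190 cells with Il11 (60.6 to 110), against 21.8 CPM in the 1562 cells without (17.7 to 26.4), and Lif was 31.6 CPM (18.7 to 49.9) against 15.2 CPM (11.8 to 19.1). Socs3 was 646 CPM in cells with Il11 and 681 CPM in cells without, and Fos was 1754 CPM in cells with Il11 against 3191 CPM. Ranked by observed over expected co-detection with Il11 in this cluster, where common genes cannot rank high, Il6 was number 27 and Lif number 40 of 9127 genes. The gene that led was Cemip, at 5.21 times, followed by Lcn2 at 4.10 times.

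Within the Ptx3 Ebf1 cluster, Socs3 was 2516 CPM in the 239 cells with Il6 (2401 to 2635), against 1169 CPM in the 892 cells without (1128 to 1210). Fos was 7487 CPM against 5564 CPM and Atf3 2149 CPM against 1486 CPM in the same cells, and Jun and Egr1 were higher in cells with Il6 too. The heat-shock genes were lower there, Hspa1a at 551 CPM against 837 CPM and Hspa1b at 119 CPM against 181 CPM. Jak1 was 230 CPM against 178 CPM and Stat3 163 CPM against 123 CPM, each with intervals that do not touch or touch at their ends, and Il11 was 5.58 CPM against 6.35 CPM. By co-detection with Il6 in this cluster Socs3 ranked 1082 of 9029 genes at 1.22 times. Socs3 was found in 860 of the 1131 thinned cells, which caps its ratio and rank. As an odds ratio with Il6, Socs3 had 4.86, against 1.48 for Lif, 2.91 for Atf3, 2.8 for Egr1 and 1.8 for Jun. Hspa1a had 0.851 and Hspa1b 0.76. Fos had 8.28, but it was found in 238 of the 239 cells with Il6 and in 1100 of all 1131. Its odds ratio thus rests on very few cells without Fos. Ptx3, a pattern recognition protein, ranked among the leading 5 at 2.29 times.

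Thinned cells of the stromal clusters were also grouped by the UMIs of sort antigen genes. Il6 was 95.2 CPM in 1492 cells with Cd34 and Cd81 UMIs (86.3 to 105), against 20.8 CPM in 4701 cells with Cd34 and without Cd81 (18.5 to 23.3). Cells with Cd81 and without Cd34 had 116 CPM. Il11 was 74.1 CPM in 823 cells with Sdc1, which encodes CD138, and without Cd34 or Cd81 (63.8 to 85.7), against 10.9 CPM in cells with Cd34 and Cd81. Of the Cd34 and Cd81 cells 50% were Ptx3 Ebf1 cells, and of the Sdc1 cells 60.4% were Mmp10 Cemip cells. A cell without a UMI of such a gene may still express it, so these groups are not the sorted populations.

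Chromatin at the cytokine genes was more accessible in MRISC and CD34 SP than in CD138 and Myofibroblast cells, by the length covered with peaks. MRISC and CD34 SP are set together here because both are known from the study as CD34-positive, which the labels do not state for MRISC. In the Il6 window (gene body, chr5:30013114-30019981 on the plus strand, with 10 kb on both sides) MRISC peaks covered 2536 bp and CD34 SP peaks 3478 bp, against 1449 bp for CD138 peaks and 842 bp for Myofibroblast peaks. In the Il11 window (chr7:4772373-4782859, minus strand) the lists covered 6208, 6356, 2719 and 2418 bp in the same order. In the Lif window (chr11:4257557-4272514, plus strand) they covered 6656, 7567, 3016 and 1546 bp. In all 3 windows both CD34 populations exceeded both others. The mean of MRISC and CD34 SP was 2.63 times that of CD138 and Myofibroblast for Il6, 2.45 times for Il11 and 3.12 times for Lif. The median over 20048 protein-coding genes with a peak was 1.40, and 17.6% of them reached 2. Coordinates are mm10, counted from 1.

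**Figure D4:**
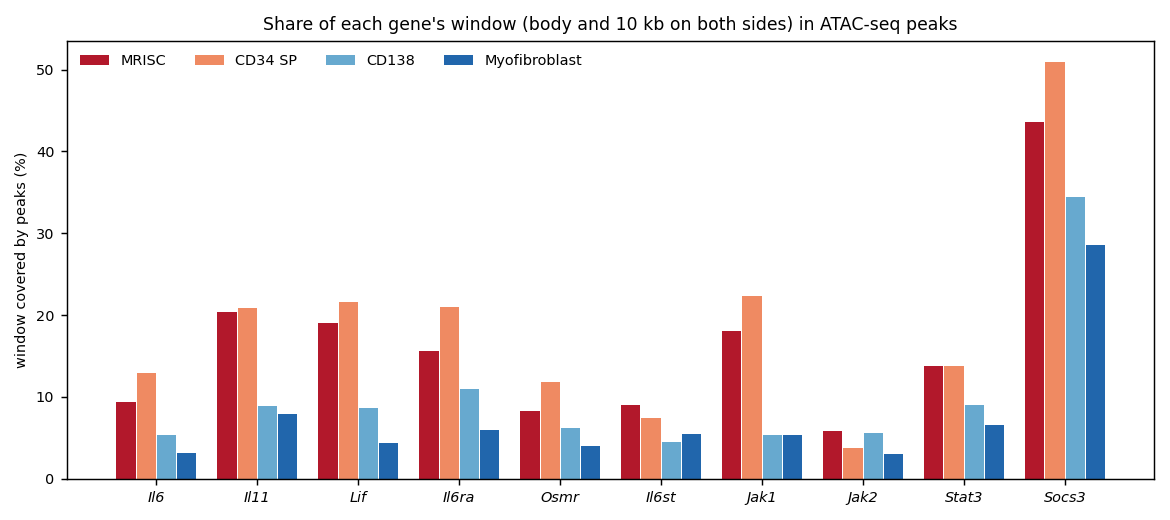
Share of each gene's window, the gene body with 10 kb on both sides, covered by peaks (y axis, percent) in MRISC, CD34 SP, CD138 and Myofibroblast (bars from left to right); each bar is 1 pooled list of 2 libraries, with no error. As a ratio of means between MRISC with CD34 SP and CD138 with Myofibroblast, Jak1 (3.8) and Lif (3.12) differ most of the 10 and Jak2 (1.13) least.

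Among the 10 genes 5 reached 2 by covered length: Il6, Il11, Lif, Il6ra (2.16) and Jak1 (3.8). Osmr had 1.97, Stat3 1.77, Il6st 1.66, Socs3 1.5 and Jak2 1.13. By number of peaks Jak1 alone reached 2 (2.96), where 6.22% of genes did and the median was 0.9. Peaks of MRISC and CD34 SP are wider: the median MRISC peak was 227 bp and the median CD34 SP peak 305 bp wide, against 174 bp for CD138 and 162 bp for Myofibroblast, so covered length carries part of a difference between lists. In all, 5 of the windows hold parts of other protein-coding genes that may share peaks (She at Il6ra, Il31ra at Il6st, Raver2 at Jak1, Insl6 at Jak2 and Stat5a at Stat3), and Il11 has 3 such neighbours.

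The promoter of Il6 was in a peak of all 4 populations. The MRISC peak over the start ranked at the 95.2 percentile of its list by score and the CD34 SP peak at 96.4, against 94.0 for the CD138 and 88.9 for the Myofibroblast peak, and these peaks were 1332, 1383, 830 and 675 bp wide. The 300 bases around the RefSeq start (250 before and 50 after, GRCm38.p6, chr5:30012864-30013163, plus strand) lay wholly in these peaks. They are shown for the AP-1 word TGANTCA (first base at -249 from the start) and the NF-kB word (GGGA, any base, then TTTCC; at -44), in capitals, with the start counted as +1:

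Il6 promoter: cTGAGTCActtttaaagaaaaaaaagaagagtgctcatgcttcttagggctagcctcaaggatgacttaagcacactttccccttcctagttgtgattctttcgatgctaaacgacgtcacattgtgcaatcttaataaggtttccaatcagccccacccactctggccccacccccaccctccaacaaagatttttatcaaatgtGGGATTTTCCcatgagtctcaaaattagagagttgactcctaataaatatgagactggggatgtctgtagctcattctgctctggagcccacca

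AP-1 is the Fos and Jun factor family and NF-kB a family of inflammatory regulators, both known for the Il6 promoter. The NF-kB word, searched on both strands, was in 0.411% of 32817 RefSeq promoters and the AP-1 word in 7.81%. The STAT word TTCNNNGAA (8.29% of promoters) was not in this window. A match is a word, not a bound site.

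At Il11 the populations differed at a promoter. RefSeq lists starts at chr7:4782857 and chr7:4778141. The 300 bases around the first were in no peak. Around the second (chr7:4778092-4778391, minus strand), peaks covered 267 bases in MRISC and 300 in CD34 SP, against 0 in CD138 and 0 in Myofibroblast. The CD34 SP peak was 2127 bp wide and ranked at the 94.6 percentile of its list, and the MRISC peak at the 75.7 percentile. In CD138 and Myofibroblast the nearest peaks lay downstream, within the gene (chr7:4776844-4777573 and chr7:4776816-4777638). In the single-cell library Il11 was lower in cells with Cd34 and Cd81 UMIs than in cells with Sdc1, so RNA and peaks at this start did not run in the same order. The mice differed in sex and the sorted cells carry no treatment label. The second promoter is shown for its AP-1 word (at -98, in capitals):

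Il11 promoter, second start: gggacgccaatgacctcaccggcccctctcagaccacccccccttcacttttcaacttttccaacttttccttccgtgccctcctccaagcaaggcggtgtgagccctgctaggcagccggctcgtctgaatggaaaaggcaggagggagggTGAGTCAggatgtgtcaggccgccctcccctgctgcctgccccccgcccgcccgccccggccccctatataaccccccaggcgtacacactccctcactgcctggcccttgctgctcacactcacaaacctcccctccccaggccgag

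Lif had no peak over its RefSeq start in any population, and its peaks lay from the first intron on, except for 1 Myofibroblast peak at the upstream edge of the window. The highest ranked lay in an intron, at the 95th percentile in MRISC (chr11:4263836-4264564) and the 95.1 percentile in CD34 SP (chr11:4263834-4265121). The overlapping peak ranked at the 83.9 percentile in CD138 and the 51.3 percentile in Myofibroblast. Lif itself had an AP-1 word at -228.

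**Figure D5:**
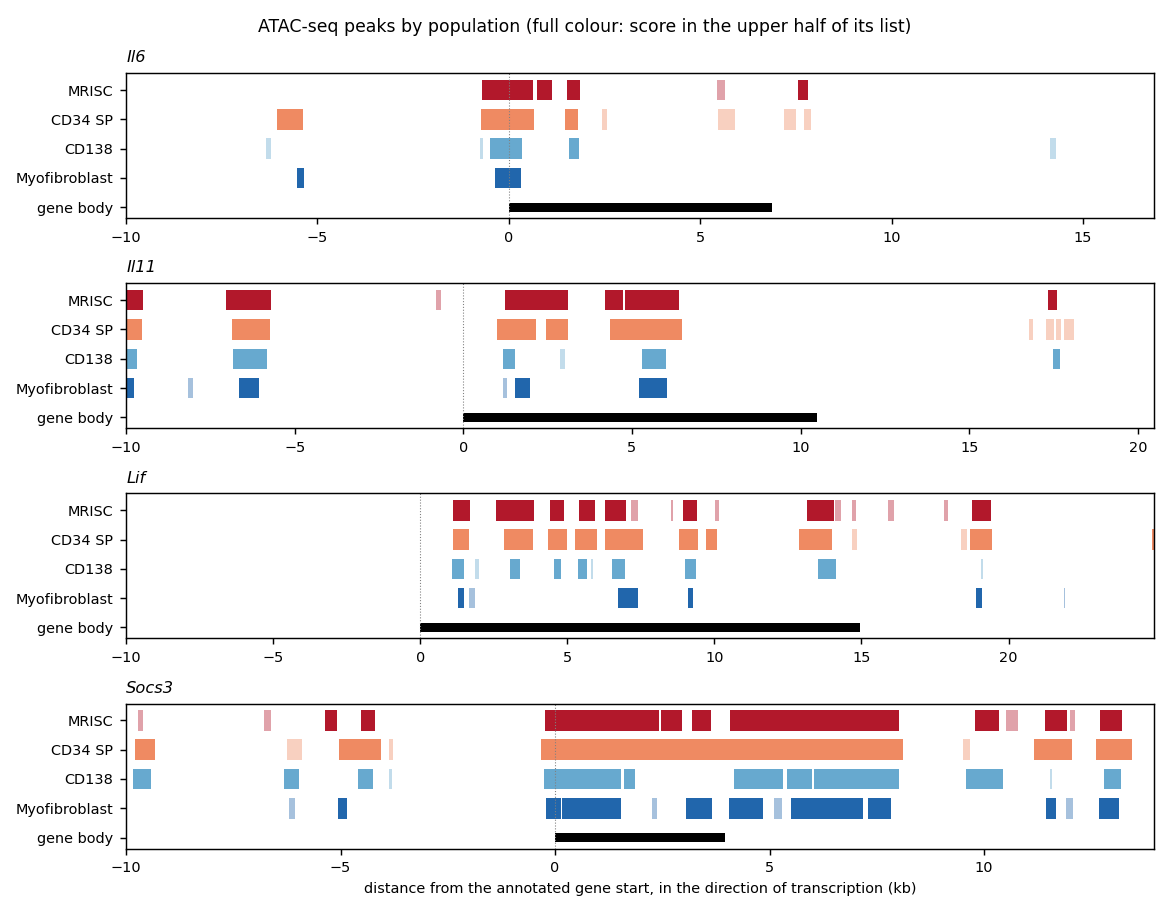
Peaks at Il6, Il11, Lif and Socs3 in MRISC, CD34 SP, CD138 and Myofibroblast (rows from top to bottom) by distance from the annotated gene start in the direction of transcription (x axis, kb); full colour marks peaks scored above the median of their list and the black bar the gene body. All 4 populations have a peak over the Il6 start, and peaks in the Il11 and Lif bodies are wider in the upper rows.

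Socs3 (chr11:117966079-117970047, minus strand) had the largest covered share of the 10 windows, 43.6% in MRISC and 51.0% in CD34 SP. In length this was 10458 bp of MRISC peaks and 12218 bp of CD34 SP peaks, against 8239 bp of CD138 peaks and 6849 bp of Myofibroblast peaks. In CD34 SP 1 peak of 8440 bp spanned the start and the whole gene body. The peaks over the promoter ranked at the 98.7 to 99.5 percentile in all 4 lists. The 3 Socs3 peaks found in a single population were all from MRISC. The promoter (chr11:117969317-117969616, minus strand) is shown for its STAT word TTCNNNGAA (at -154, in capitals), the only match to it among the promoters of the 10 genes:

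Socs3 promoter: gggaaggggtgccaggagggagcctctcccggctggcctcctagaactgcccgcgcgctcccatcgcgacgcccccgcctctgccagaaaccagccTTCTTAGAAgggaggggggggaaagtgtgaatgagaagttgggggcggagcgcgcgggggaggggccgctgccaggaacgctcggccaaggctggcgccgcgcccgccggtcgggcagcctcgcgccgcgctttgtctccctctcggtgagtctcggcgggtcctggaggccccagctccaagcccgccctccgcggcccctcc

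Jak1 (chr4:101152367-101265282, minus strand) stood apart in number of peaks: 67 in MRISC and 90 in CD34 SP, against 27 in CD138 and 26 in Myofibroblast. Peaks without overlap in any other population numbered 22 for MRISC and 42 for CD34 SP, against 7 for CD138 and 6 for Myofibroblast. The excess of such peaks in CD34 SP over the mean of the other 3 populations was the largest of 21938 protein-coding genes, without correction for the length of the 133 kb window. These peaks scored low: 1 of the 42 was above the median score of the CD34 SP list, and 6 of the 22 in MRISC. The promoter peak was in all 4 populations, at the 98.7 to 99.1 percentile. Jak1 RNA did not show this difference between cells with Cd34 and cells with Sdc1. It was 159 CPM in thinned cells with Cd34 and Cd81 UMIs (148 to 171) and 147 CPM in cells with Cd34 and without Cd81. Cells with Sdc1 and without Cd34 or Cd81 had 151 CPM (137 to 168), with overlapping intervals. Stromal cells with UMIs of none of these genes had 133 CPM (126 to 141). By cluster, Jak1 was lowest in the smooth-muscle-like cells, at 96.7 CPM (89.8 to 104) against 154 CPM in all other kept cells. Of merged peak regions in the Jak1 window, 21 of 127 were shared by MRISC and CD34 SP alone and 0 by CD138 and Myofibroblast alone. Of these, an intronic region (chr4:101196510-101196809) lay at the 71.0 percentile in MRISC and the 46.0 percentile in CD34 SP. Regions also searched at Lif, at Socs3 and elsewhere at Jak1 held no such word, and its rate outside promoters was not measured. The intronic region is shown on the plus strand of the genome for its AP-1 word, in capitals:

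Jak1 region: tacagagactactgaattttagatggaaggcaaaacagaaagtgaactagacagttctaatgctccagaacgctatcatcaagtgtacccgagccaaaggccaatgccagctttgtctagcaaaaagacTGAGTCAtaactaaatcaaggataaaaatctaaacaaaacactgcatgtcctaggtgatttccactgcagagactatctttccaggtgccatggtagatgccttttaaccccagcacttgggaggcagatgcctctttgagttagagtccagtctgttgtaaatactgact

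At the RefSeq starts of the remaining receptor, kinase and STAT genes, promoter peaks were found in all 4 populations, at the 88.9 percentile or above. For Osmr the annotated gene start lies further upstream, and peaks over it were those of MRISC and CD34 SP alone. Peaks covered 10749, 14502, 7565 and 4140 bp of the Il6ra window in MRISC, CD34 SP, CD138 and Myofibroblast, and 6743, 9617, 5009 and 3304 bp of the Osmr window. The Stat3 window had 10230, 10296, 6678 and 4893 bp in the same order. The Il6st window had 5911, 4903, 2936 and 3573 bp. Jak2 alone of these did not separate the CD34 populations from the others, with 4789, 3082, 4501 and 2472 bp. Over all 10 windows 362 merged regions were found, of which 23.2% were in CD34 SP alone and 10.2% in MRISC and CD34 SP alone, against 10.4% and 3.46% of 478556 regions in the genome. Without Jak1 these shares were 17.9% and 6.81% of 235 regions. The regions of the genome include those far from genes, and the windows of other genes were not counted this way. Whether the shares differ from those of other gene windows was thus not tested.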

How the data were processed

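The series holds 21 samples in 9 groups. The single-cell library and the 8 ATAC-seq libraries (as 4 pooled peak lists) were used, and 12 bulk colon RNA samples were not analysed here. UMI counts by gene and barcode, as whole numbers, are in the single-cell matrix deposited by the authors. They used bcl2fastq, Cell Ranger and Seurat with mm10, per the submitters' processing notes, and version 3.0.0 of the counting software, per the file headers. Each peak in the deposited lists carries a score from the authors, who name bcl2fastq, bedtools and mm10, per the submitters' processing notes. Which caller was used, what a score measures and how the 2 libraries were pooled is not given in the sources used here, so scores only ranked peaks within a list. Cells for ATAC-seq were sorted as gp38-positive and negative for CD45, Epcam and CD31, per the labels' protocols.

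Cells were clustered in scanpy 1.11.5 (2000 variable genes, 30 components, 15 neighbours, Leiden resolution 0.5 with leidenalg 0.10.2) without the 10 genes and the pathway list. Doublets were not removed. A cluster bears a type name from at least 3 markers. Clusters were compared by pooled CPM with exact Poisson intervals, calls needed 2-fold and 20 CPM, and cells were thinned to 3000 UMIs for shares and co-detection. The free RNA share came from 27 marker genes of other cell types in empty droplets, 104 CPM in stromal clusters against 474 CPM in empty droplets. Peaks overlapping a window by 1 bp were counted. Promoters are RefSeq sequences (GRCm38.p6), and all 11 entries of the 10 genes equalled the genome. Peak overlap, thinning and co-detection code was checked on simulated data, and the code for confidence intervals was not.

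The genes, lists and tests were chosen with earlier results of these data known. Named beside the 10 genes were Lifr, Il11ra1, the 8 pathway genes with the largest fold among those called, and the 5 genes most like Il6, Il11 and Socs3 across clusters. Alternatives covered windows, peak scores, overlap, barcode filters, clustering, free RNA, thinning and the cells used for co-detection.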

Additional observations from a re-analysis of the deposited data

How the results depend on the processing

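The number of the 10 genes with 2-fold more covered bases in MRISC and CD34 SP stayed at 5 or 6 under all 5 alternatives for windows, scores and overlap, under which 12.1% (50 kb flanks) to 23.6% (gene body alone) of all genes passed. The number called 2-fold higher in their highest cluster, 3, was 5 once free RNA was taken off (Osmr and Il6st joined), and 3 or 4 under the other clusterings. The share of Ptx3 Ebf1 cells with Il6 was 25.5% without thinning and 16.7% at 2000 UMIs. Il6 fold was 78.2 with free RNA removed. Il11 fold was 16.2 with free RNA removed and 2.83 at Leiden resolution 0.3, where fewer clusters were made. Chosen after seeing the data, the comparison among cells at or below the stress median gave 4.05-fold for Il6 and 0.91 for Socs3, where Socs3 was no longer higher in the Ptx3 Ebf1 cluster; the cause was not tested. Library levels with all 11484 barcodes stayed within their counting intervals. No paired analysis was possible because the peak lists pool the libraries of a population and the single-cell library has no replicate. Depth limits Lif, Jak2 and the 2 clusters under 50 cells most.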

Other observations

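At the finer Leiden resolution of 1.0 the cells formed 19 clusters. The Ptx3 Ebf1 cells split into a cluster led by Ptx3, Ctla2a and Ptn (488 cells) with Il6 at 338 CPM (exact 95% Poisson interval 319 to 358) and a cluster led by Npy1r, Ackr4 and Pcolce2 (872 cells) with Il6 at 152 CPM (141 to 164). Socs3 was 1821 CPM in the first and 1181 CPM in the second. The highest Il11 level was 146 CPM (132 to 160) in a cluster led by Ccl21a, Gja4 and Ubd (394 cells), of which 51.0% came from the Mmp10 Cemip cluster. The same cluster had Lif at 37.1 CPM (30.5 to 44.8), the highest of the 19 clusters, and Il6 at 83.1 CPM (73.0 to 94.2), the third highest.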
